A study of Mus musculus and Mus musculus
Oryx dammah with 30 samples.

Results

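Long intergenic noncoding RNAs (lincRNAs) were followed in mouse embryos that had received nuclei of C2C12 cells, a myoblast line of C3H origin. The lincRNAs described here were chosen by their level: genes of the type lincRNA with an FPKM (fragments per kilobase of transcript, scaled to the reads of the library) that reached 1 in 3 or more four-cell libraries out of 6, leaving out Gas5, Neat1, H19, Meg3, Kcnq1ot1, Airn and the Snhg genes. Of 5307 lincRNA genes in the table of 53023 genes, 270 passed this threshold, 6 were left out by name (H19, Snhg6, Snhg10, Snhg12, Snhg18 and Snhg20), and 264 remained. A total of 9884 genes of every type passed the same threshold. The 3 lincRNAs just inside it were Gm28078, C330019F10Rik and CT009536.1, which reached an FPKM of 1.01, 1.01 and 1.02 in 3 libraries, and the 3 just outside were 1700061N14Rik, Gm43049 and Gm26767, which reached 0.999, 0.988 and 0.984.

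In every group the recipient was an embryo of C57BL/6 and DBA/2 parents obtained by in vitro fertilization, and every embryo was arrested at G2/M with 0.1 µg/ml demecolcine, a drug that disturbs microtubules. At the four-cell stage, nuclear transfer (NT) was done from 46 h post insemination (hpi), and NT embryos were cultured to 70 hpi with or without α-amanitin, an inhibitor of RNA polymerase II, with 3 libraries per group and 3 embryos pooled per library. At the two-cell stage there were 6 libraries with and 6 without α-amanitin, each from 5 pooled embryos, and both groups mixed early (NT from 21 hpi, culture to 45 hpi) and late (NT from 30 hpi, culture to 54 hpi) recipients, since the column names give α-amanitin but not the time. The replication experiment compared the groups D and DR, 3 libraries each of 4 pooled four-cell NT embryos without α-amanitin. The labels do not say which letter stands for NT before DNA replication. Each library holds the RNA of the recipient and of the transferred nuclei together, and fewer cells of a type and less RNA per cell cannot be told apart in it. Each recipient received 2 donor cells.

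LincRNAs are transcribed by RNA polymerase II, usually spliced and polyadenylated, and code for no known protein. Some act on chromatin or transcription near their own locus, such as Xist, which coats the inactive X chromosome, and others serve as hosts from which microRNAs are cut, such as Mir17hg. Many mouse lincRNAs are made at zygotic genome activation, when the embryo begins its own transcription, and most of those have no name beyond a clone or model number and no known function. Blocking RNA polymerase II with α-amanitin prevents the synthesis of such RNAs and leaves those already present.

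The four-cell libraries held 1136771 to 3101002 reads, and both ends belonged to libraries with α-amanitin (those without it held 1829781 to 2278397). Markers of preimplantation embryos were present in all libraries (14 of 14 detected in both four-cell groups, with a summed FPKM of 12870 to 13640 without and 15080 to 20810 with α-amanitin). Of 18 myoblast markers, 12 were detected without and 15 with α-amanitin, and their summed FPKM was 224 to 726 and 191 to 2265. Cumulus cell markers were near 0 in the four-cell libraries (a summed FPKM of at most 0.532), with 11 and 10 of the 12 at 0 in every library of the group. In the two-cell libraries the summed FPKM of the cumulus markers was 0.559 to 3.40 without and 0.153 to 5.65 with α-amanitin, that of the myoblast markers 165 to 4553 and 1197 to 2542, and that of the embryo markers 9434 to 14390 and 1058 to 9498. In the replication experiment the embryo markers summed to 5008 to 6021 in DR and 5485 to 7867 in D, and the myoblast markers to 268 to 444 and 479 to 567, without overlap. The part of these differences in the results below was not tested.

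The sequences of a few of these loci are given before their values. For polyadenylated RNA such as was reverse transcribed here, the end of the transcript is the primed part, and 5 of the 12 lincRNAs called higher without α-amanitin at both recipient stages are shown by the last 50 bases of their longest transcript in GENCODE vM21, in transcript direction, with the polyadenylation signal (AATAAA, or its variant ATTAAA) in capitals.
AC163667.1: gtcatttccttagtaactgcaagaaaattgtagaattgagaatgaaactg
A930014E10Rik: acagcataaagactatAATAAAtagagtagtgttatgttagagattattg
Gm44693: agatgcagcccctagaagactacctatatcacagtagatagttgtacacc
Gm11290: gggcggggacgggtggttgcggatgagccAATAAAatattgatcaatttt
AC122428.4: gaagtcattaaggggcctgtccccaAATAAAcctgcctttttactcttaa
A930014E10Rik, Gm11290 and AC122428.4 are the 3 of these 12 that hold the signal, and AC163667.1 and Gm44693, which had the largest four-cell rises, stand for the 9 in which the letters are not in this window. Over all lincRNAs described here, 140 of the 262 with a transcript in this annotation held the signal in the last 50 bases (53.4%), beside 39.8% of 5022 other lincRNAs.

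Mir17hg, the host gene of the miR-17-92 cluster (mm10, chr14:115042879-115046727, plus strand, 2 exons), carries 6 microRNA hairpins. The mature microRNAs of its best known arms are given from RefSeq (GRCm38.p6) with the seed, bases 2 to 8, in capitals, because the seed sets the family of targets.
miR-17-5p: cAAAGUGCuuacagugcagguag
miR-20a-5p: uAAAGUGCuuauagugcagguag
miR-18a-5p: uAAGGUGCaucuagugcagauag
miR-19a-3p: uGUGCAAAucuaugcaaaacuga
miR-19b-3p: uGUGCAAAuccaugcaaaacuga
miR-92a-3p: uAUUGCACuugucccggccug
miR-17-5p and miR-20a-5p share the seed AAAGUGC, miR-19a-3p and miR-19b-3p share GUGCAAA, miR-18a-5p has AAGGUGC and miR-92a-3p has AUUGCAC. The libraries measured the host RNA, not the mature microRNAs.

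Promoters, from 250 bases before to 50 after the gene start in RefSeq (GRCm38.p6), could be matched by symbol for 106 of the 264 lincRNAs (121 sequences). These 4 are printed in gene direction because their genes carry the results: 1700007L15Rik rose with its neighbour Zfp148, Gm17586 starts beside Mafg, 2310040G24Rik had the highest mean FPKM, and C86187 was lower without α-amanitin at the two-cell stage. Capitals mark 5 motifs searched on both strands, with overlaps allowed. The GC box, a site of factors such as Sp1, was searched as GGGCGG. The CCAAT box, a site of the factor NF-Y, was searched by the letters of its name. The TATA box was searched as TATAAA, the E-box as CACGTG and a C-rich run bound by factors such as Zfp281 as CCTCCCCC. They lie at chr16:33380687-33380986 (minus), chr11:120633500-120633799 (plus), chr6:86488178-86488477 (minus) and chr7:46975862-46976161 (minus), respectively.
1700007L15Rik: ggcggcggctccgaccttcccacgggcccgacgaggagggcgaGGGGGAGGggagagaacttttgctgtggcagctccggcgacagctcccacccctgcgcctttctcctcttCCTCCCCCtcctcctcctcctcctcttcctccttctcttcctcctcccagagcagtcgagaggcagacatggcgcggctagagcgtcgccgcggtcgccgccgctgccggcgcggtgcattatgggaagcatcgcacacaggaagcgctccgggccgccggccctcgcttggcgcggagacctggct
Gm17586: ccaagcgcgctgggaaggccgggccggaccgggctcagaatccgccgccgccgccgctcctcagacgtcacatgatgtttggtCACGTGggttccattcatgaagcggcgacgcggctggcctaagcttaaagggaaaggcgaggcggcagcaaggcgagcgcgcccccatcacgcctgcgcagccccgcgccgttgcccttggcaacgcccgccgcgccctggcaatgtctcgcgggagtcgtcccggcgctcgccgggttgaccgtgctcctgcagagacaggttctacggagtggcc
2310040G24Rik: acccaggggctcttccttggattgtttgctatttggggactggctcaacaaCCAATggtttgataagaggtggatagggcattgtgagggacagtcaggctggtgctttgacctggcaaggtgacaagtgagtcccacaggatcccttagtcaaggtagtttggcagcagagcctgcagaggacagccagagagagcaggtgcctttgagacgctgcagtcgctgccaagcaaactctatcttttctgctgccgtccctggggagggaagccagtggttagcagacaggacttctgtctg
C86187: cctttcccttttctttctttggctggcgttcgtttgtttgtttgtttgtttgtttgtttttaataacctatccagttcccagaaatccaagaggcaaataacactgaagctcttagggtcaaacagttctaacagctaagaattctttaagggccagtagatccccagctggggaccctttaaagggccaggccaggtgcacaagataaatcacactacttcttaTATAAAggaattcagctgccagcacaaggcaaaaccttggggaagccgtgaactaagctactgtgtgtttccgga
Among the 121 promoter sequences, 24.8% held a GC box (35.7% of all 32851 RefSeq promoters), 43.0% a CCAAT box (37.4%), 10.7% a TATA box (13.6%), 2.48% an E-box (7.15%) and 9.09% the C-rich run (8.29%).

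The 264 lincRNAs were short and low. Their summed exon length had a median of 874 bases (168 to 17923, the longest being Xist), beside 1056 bases for the other 5043 lincRNAs, and 7 had a single exon record. Exon records are the entries listed for a gene and need not be separate exons. Malat1, for example, has 9 records that together cover its whole span, so more than these 7 can lack an intron. Their mean FPKM over the 6 four-cell libraries had a median of 3.85, with 52 at 10 or more and 4 at 100 or more, beside a median of 6.59 for the 8024 protein-coding genes that passed the same threshold. Chromosome 13 held 31 of them (11.7%) and 7.80% of all lincRNA genes of the table. A protein-coding gene started within 5 kb of 44 of them, in a divergent arrangement for 30. A protein-coding gene was overlapped by 32, on the opposite strand for 28 of these. Gm6712, BC002059, 4930517L18Rik and Gm4316 overlapped one on the same strand alone. The counting is not stated to use strand, so reads of these 32 and of their partners cannot be told apart.

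The highest mean FPKM at the four-cell stage belonged to 2310040G24Rik, Malat1, AC163667.1, Gm26917, Gm6712, Gm44386, Gm40977 and AC122486.1. 2310040G24Rik (chr6:86483376-86488227, minus strand, 4 exon records) had an FPKM of 370, 377 and 297 without α-amanitin and 310, 314 and 66.6 with it. Malat1, an abundant nuclear RNA of most cells, had 90.3, 346 and 209 without and 87.6, 150 and 168 with α-amanitin. For both genes the groups overlapped. AC122486.1 overlapped as well (91.8, 204 and 37.7 against 93.8, 4.49 and 22.5). Gm6712 (207, 74.5 and 124 against 24.4, 66.6 and 27.5) and Gm40977 (146, 113 and 130 against 41.4, 43.4 and 14.998) were higher without α-amanitin in every library. Gm6712 overlaps a coding gene on the same strand, so its reads cannot be told apart from those of that gene. Gm40977 lies among zinc finger genes of chromosome 13 and its nearest coding start is that of Zfp808.

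The four-cell comparison asks which RNAs were made after NT. It uses the values that chose the lincRNAs, so its counts, and the adjusted p of each lincRNA there, are a description. Called here means an adjusted p below 0.05 (limma, Benjamini-Hochberg over 9884 genes) and at least a 4-fold change on the log2(FPKM + 1) scale, on which changes of low genes are understated. Of the 264 lincRNAs, 34 (12.9%) were called higher without α-amanitin, beside 6.2% of all genes tested, and 4 (1.52%) were called lower, beside 0.364%. Every library without α-amanitin was above every library with it for 84 lincRNAs (31.8%, beside 27.6% of all genes), and below it for 16 (6.06%, beside 7.56%). The median log2 change was 0.68, and 0.37 over all genes; with median-of-ratios scaling, which moved the median of all genes to 0.13, it was 0.45. Of the lincRNAs, 30 passed the threshold through the libraries without α-amanitin alone, having an FPKM of at least 1 in all 3 of these and in none with it, and 18 of these (60.0%) were called higher, beside 33.8% of all genes that passed in this way. An FPKM of at least 1 in all 6 libraries was found for 79, of which 3 (3.80%, beside 2.48% of such genes) were called higher and 2 (2.53%, beside 0.229%) lower.

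AC163667.1 (chr13:67226997-67229969, minus strand, 3 exon records) had the largest rise and the third highest mean FPKM. Its FPKM was 387, 171 and 228 without and 7.26, 7.51 and 3.91 with α-amanitin, a log2 difference of 5.15 ± 0.38 (SE, adjusted p = 0.00104, limma). Gm44693 on chromosome 8 followed, with 73.5, 28.5 and 48.2 against 4.21, 0 and 0. A930014E10Rik on chromosome 6 had 69.1, 15.01 and 17.8 against 1.77, 0 and 0. The groups of all 3 did not overlap.

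For several risers the group with α-amanitin held at most 3 reads in every library, and the fold is then a lower bound set by a floor of 3 reads per library. It was at least 14.8-fold higher for Gm11290 (6.72, 2.94 and 13.4 without α-amanitin, 0 in all 3 libraries with it), at least 10.1-fold for A930014E10Rik, at least 7.02-fold for Gm33973 (43.6, 6.14 and 22.5 against 0) and at least 4.24-fold for AC121569.2 (10.7, 5.71 and 24.2 against 0). Gm31793 (13.7, 21.1 and 18.9 against 0.777, 0 and 0) was at least 4.06-fold higher, Gm43263 (6.27, 5.86 and 27.2 against 0) at least 4.01-fold and Gm14742 on the X chromosome (5.76, 12.9 and 7.28 against 0) at least 1.80-fold. In all, 20 of the 34 risers had such a bound in place of a fold. AC160980.2 (27.7, 14.4 and 30.2 against 3.74, 0 and 0) and AC155813.1 (37.2, 13.0 and 21.9 against 3.28, 0 and 0) complete the 10 largest rises. For all of these the 3 libraries without α-amanitin were above the 3 with it.

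**Figure D1:**
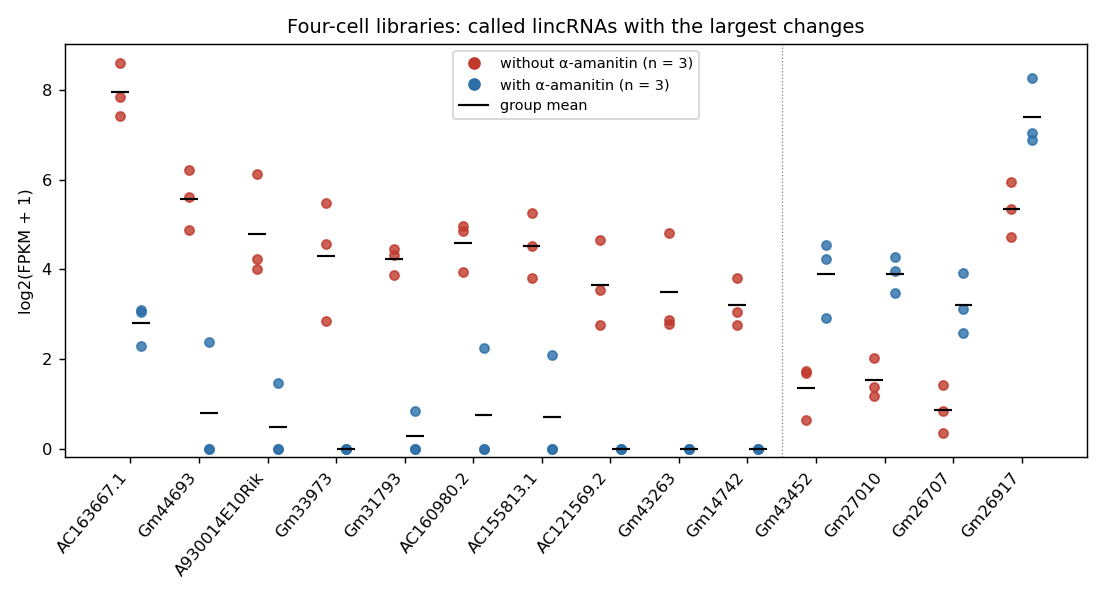
FPKM of each four-cell library (log2(FPKM + 1), points) for the 10 called lincRNAs with the largest rise without α-amanitin and the 4 called lower, with the group mean as a bar. In the 10 risers every point without α-amanitin is above every point with it, and in the 4 fallers every point is below.

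With all 6 libraries, 4 lincRNAs were called lower without α-amanitin. Gm26917 (chr17:39843013-39846341, plus strand) had 39.9, 61.1 and 25.3 without and 118, 131 and 310 with α-amanitin (log2 difference -2.06 ± 0.44, adjusted p = 0.0222, limma). It lies next to the ribosomal RNA copy Rn18s-rs5 of this assembly. Whether reads of ribosomal origin are counted in it was not tested, and its value is uncertain. Gm43452, a gene of 1 exon, had 2.21, 0.551 and 2.33 against 6.51, 17.8 and 22.2. Gm27010 had 3.05, 1.27 and 1.61 against 10.1, 18.3 and 14.6. Gm26707, which overlaps a coding gene on the opposite strand and starts 259 bases from the start of Cyp2s1, had 0.787, 0.280 and 1.66 against 14.2, 7.67 and 5.00. None of the 4 overlapped between groups.

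The number of four-cell calls rested on single libraries. It was 38 in all, 25 without the library S18 (with α-amanitin, 25 higher and 0 lower), 25 without S8 (with α-amanitin), 22 without S15 and 21 without S7 (both without α-amanitin), 53 without S16 (with α-amanitin, 43 higher and 10 lower), and 15 when every gene with any signal was tested. AC163667.1, Gm44693, A930014E10Rik, Gm33973, Gm31793, AC121569.2, Gm43263, Gm14742 and Gm11290 were called in each of the 6 fits that left out a library. AC160980.2 and AC155813.1 were not called without S15 or S7 (adjusted p up to 0.0541 and 0.0523, limma). Each of the 4 called lower lost its call without S18 and also without S7, with an adjusted p of up to 0.0845 for Gm26707 (limma).

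Some risers start close to a coding gene in the opposite direction. 1700007L15Rik (chr16:33379855-33380727, minus strand) starts 48 bases from Zfp148, which codes for a zinc finger transcription factor. The lincRNA had 46.5, 26.7 and 42.7 without and 6.13, 4.77 and 5.12 with α-amanitin, a log2 difference of 2.61 (adjusted p = 0.00527, limma), and Zfp148 was called higher as well (log2 difference 2.30, adjusted p = 0.0364). Gm17586 (chr11:120633768-120635125, plus strand) starts 168 bases from Mafg, which codes for a small Maf transcription factor, and had 69.1, 18.7 and 23.9 against 5.68, 0.969 and 6.93 (log2 difference 2.79, adjusted p = 0.0286, limma), while Mafg had a log2 difference of 0.89 that was not called (adjusted p = 0.254). Gm17586 was not called without S18, S15, S17 or S7 (adjusted p up to 0.104, limma). Among all four-cell risers, 6 had a tested coding neighbour starting within 5 kb, and that neighbour was called higher for 2 of them (6.2% of all genes were called higher). Over the 33 lincRNAs with a tested coding neighbour within 5 kb, the log2 changes of the pairs had a Pearson r of 0.377 and a Spearman rho of 0.296, across genes that share libraries and in part a promoter region. In 10 of these pairs the lincRNA overlaps a coding gene on the opposite strand, so that reads cannot be told apart, and over the other 23 r was 0.357 and rho 0.336.

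The two-cell values were not used to choose the lincRNAs and come from other embryos. Of the 264, 246 were found in that table by identifier (19 of them under another gene type), 18 were not found, 226 passed the level filter of at least 1 FPKM in at least 3 of 12 libraries, and 2 were at 0 in every library. Of the 226, 58 (25.7%) were called higher without α-amanitin, beside 11.1% of the 17196 genes tested, and 8 (3.54%) were called lower, beside 1.58%. With median-of-ratios scaling the split was 33 higher (14.6%, beside 5.11% of all genes) and 14 lower (6.19%, beside 4.47%), and with spike-in scaling it was 112 higher (49.6%, beside 34.2%) and 2 lower (0.885%, beside 0.163%). Among the 9325 genes tested here that had also passed the four-cell threshold, 15.6% were called higher and 0.997% lower. The threshold itself leans towards the direction tested, because lincRNAs could pass it through 1 four-cell group alone. Without the 25 that did, 53 of 201 (26.4%) were called higher and 8 (3.98%) lower, beside 15.7% and 1.0% of the genes left by the same step. Every library without α-amanitin was above every library with it for 50 lincRNAs (22.1%, beside 16.3%), and below it for 6 (2.65%, beside 2.95%). The median log2 change was 1.15 beside 0.67 over all genes and 0.93 over the genes past the four-cell threshold. The lincRNAs stood above the median of all genes by 0.48 with FPKM as deposited, 0.53 with median-of-ratios scaling (median of all genes 0.24) and 0.50 with spike-in scaling (1.49). Spike-ins took 2.38% to 6.26% of the signal without and 6.54% to 11.3% with α-amanitin.

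Protein-coding genes were called higher in 11.0% of 10737 genes at the two-cell stage (1177 genes), antisense genes in 9.28% of 733 and processed transcripts in 7.31% of 219, each below the share of the lincRNAs, but without the four-cell threshold that the lincRNAs had passed. At the four-cell stage the shares were 6.36% of 8024 protein-coding genes and 6.85% of 146 antisense genes. The lincRNAs on chromosome 13 were called higher for 11 of 28 (39.3%) and lower for 0 at the two-cell stage, and those on other chromosomes for 47 of 198 (23.7%) and lower for 8. Whether chromosome 13 differs from the rest was not tested.

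The largest rises at the two-cell stage were those of Gm45864, 2310040G24Rik, 5033426E14Rik, Gm11290, AC163667.1 and 4930500L23Rik, and in each the 12 libraries separated without overlap. Gm45864 on chromosome 8 had an FPKM of 48.7 to 121 without α-amanitin (median 75) and 0.190 to 16.9 with it (median 2.44), a log2 difference of 4.48 ± 0.61 (SE, adjusted p = 0.000202, limma). 2310040G24Rik, the highest lincRNA of the four-cell libraries, had 144 to 514 (median 217.5) against 0 to 65.2 (median 29.6), a log2 difference of 4.46 ± 1.01 (adjusted p = 0.00432, limma). Its four-cell difference was 0.88 ± 0.54 (adjusted p = 0.312, limma). AC163667.1 had 23.7 to 190 (median 93.2) against 0.0123 to 16.3 (median 4.25), a log2 difference of 4.32 ± 0.74 (adjusted p = 0.000862, limma). Gm11290 had 17.2 to 84.3 (median 32.2) against 0 to 3.98 (median 0.815), with a log2 difference of 4.33 ± 0.50. 5033426E14Rik (18.2 to 163 against 0 to 11.8) and 4930500L23Rik (38.0 to 101 against 0 to 16.5) were listed at 0 in all 3 RAm libraries.

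The largest falls were those of Gm44386, C86187, Gm28078 and Gm3143. Gm44386 had 1.73 to 86.5 (median 7.99) without and 44.3 to 820 (median 134) with α-amanitin, a log2 difference of -4.02 ± 0.84 (adjusted p = 0.00285, limma), and 1 library without α-amanitin, NT3, overlapped the other group. C86187 had 3.39 to 9.45 (median 5.51) against 11.4 to 385 (median 119), with no overlap and a log2 difference of -3.35 ± 0.79 (adjusted p = 0.00526, limma). Gm28078 had 0 to 3.95 (median 0.517) against 1.96 to 49.3 (median 21.4), and Gm3143, which starts 66257 bases from the pluripotency gene Sox2, had 1.19 to 18.1 (median 9.04) against 15.97 to 121 (median 44.6). With spike-in scaling Gm28078 and Gm3143 were no longer called, at log2 differences of -1.97 and -1.27.

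**Figure D2:**
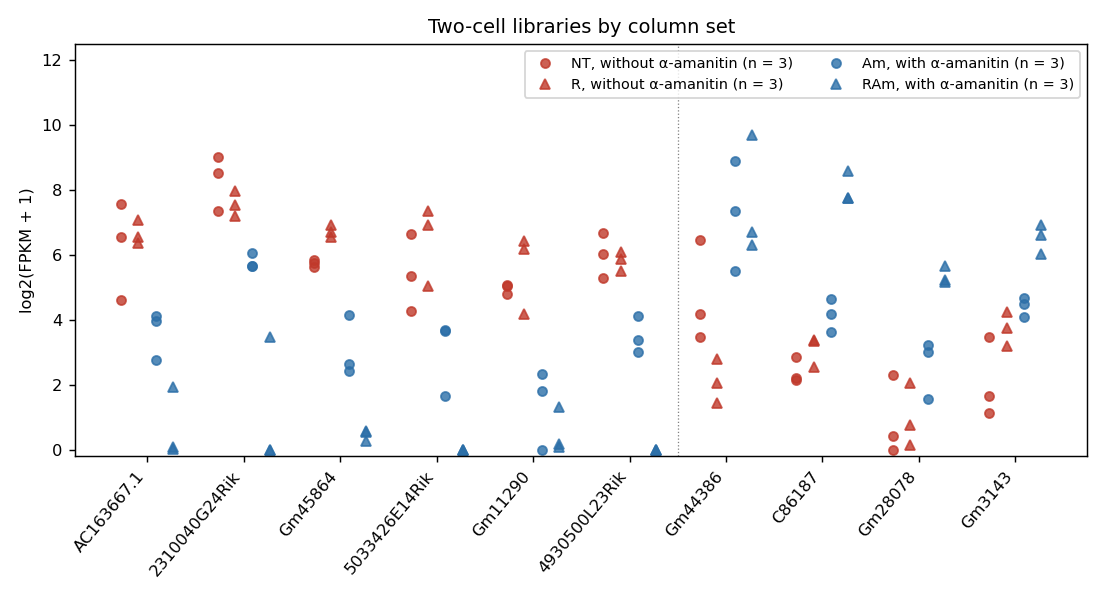
FPKM of each two-cell library (log2(FPKM + 1)) for the 6 lincRNAs with the largest rise without α-amanitin and the 4 with the largest fall; colours give α-amanitin and symbols the set of columns. The 6 risers are separated by α-amanitin in all libraries, and the 3 RAm libraries lie lowest for 2310040G24Rik, Gm45864, 5033426E14Rik and 4930500L23Rik, with 1 RAm library of 2310040G24Rik at 10.1 FPKM and the others at 0.

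The 12 columns fall by name into the sets Am and NT (3 with and 3 without α-amanitin) and RAm and R (likewise), and which of them is early or late is not given. The study reported fewer genes activated after late than after early two-cell NT, counted by genome of origin. Whether this tells the sets apart was not tested. The main fit pooled the sets without a term for them, and with such a term 60 lincRNAs were called higher and 8 lower. Of the 226 lincRNAs, 19 were called higher and 2 lower in Am and NT alone, beside 2.37% and 0.378% of all genes, and 97 higher and 10 lower in RAm and R alone, beside 27.7% and 5.16%. The difference of the α-amanitin effect between the sets was tested itself. It was larger in RAm and R for 93 lincRNAs (adjusted p below 0.05, limma), beside 36.0% of all genes, and smaller for 11, beside 8.46%. Together these are 46.0% of the lincRNAs, near the 44.5% of all genes. AC122486.1, a gene of 196 bases of exon, had the extreme pattern: 284 to 326 in Am, 0 in all 3 RAm libraries, 148 to 280 in NT and 409 to 494 in R. Over all 12 libraries it was called higher (log2 difference 4.11 ± 1.54, adjusted p = 0.0396, limma), but every NT library was below every Am library, the log2 difference in Am and NT alone was -0.56 (adjusted p = 0.175, limma), and the call was lost in 9 of 12 fits that left out a library, those without an R, RAm or NT library (adjusted p up to 0.0949, limma). Platr27 had 9.41 to 25.4 in Am, 0 in RAm, 20.3 to 24.7 in NT and 29.3 to 68.5 in R. In contrast Gm20625 had log2 differences of 3.99 and 3.89 in both sets, and the difference between them was -0.10 (adjusted p = 0.913, limma).

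In all, 12 lincRNAs were called higher without α-amanitin at both stages: AC163667.1, Gm44693, A930014E10Rik, AC160980.2, AC121569.2, Gm14742, Gm11290, Gm40977, Gm8016, Gm20625, AC122428.4 and Gm4349. That is 40.0% of the 30 four-cell risers that could be tested at the two-cell stage, beside 39.5% of the 572 risers of all gene types, and 20.7% of the 58 two-cell risers, beside 15.5% of the 1456 two-cell risers of all gene types that had passed the four-cell threshold. None was called in opposite directions and none lower in both. Of the 18 four-cell risers not called at the two-cell stage, 15 had a positive difference (83.3%), beside 83.6% of all 226 lincRNAs and 73.6% of all genes. Gm31793, for example, had 0.550 to 2.48 without and 0.129 to 15.8 with α-amanitin at the two-cell stage (log2 difference -0.85 ± 0.55, adjusted p = 0.202, limma).

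Among the 12, A930014E10Rik had 26.6 to 62.2 FPKM without and 0 to 6.12 with α-amanitin at the two-cell stage (log2 difference 4.13 ± 0.56, adjusted p = 0.000191, limma). Gm8016 (chr13:68353364-68356825, minus strand), with 35.7, 6.25 and 7.63 against 1.43, 1.12 and 0 at the four-cell stage, had 11.4 to 85.4 against 0.140 to 3.92. Gm20625 on chromosome 10, with 4.40, 10.2 and 47.7 against 1.85, 1.26 and 0, had 22.0 to 56.8 against 0.0758 to 2.67. AC160980.2 had 33.6 to 145 against 2.50 to 18.1, Gm44693 9.31 to 193 against 0 to 7.93 and AC121569.2 16.9 to 118 against 0 to 14.4, each without overlap. Gm40977, AC122428.4, Gm4349 and Gm14742 overlapped between the two-cell groups. Gm14742 was not called there without RAm1, RAm3 or NT1 (log2 difference from 1.78, adjusted p up to 0.0489, limma), AC122428.4 not without RAm1 (lowest log2 difference 1.84), Gm40977 not without RAm1, RAm2 or RAm3 (from 1.81), and Gm4349 not without RAm1, RAm2, RAm3, NT1, r1 or r2 (from 1.62). At the four-cell stage Gm20625 lost its call whichever library was left out (adjusted p 0.0508 to 0.113), Gm8016 and Gm4349 each lost it in 5 of 6 such fits, Gm40977 lost it in 4 and AC122428.4 in 3.

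**Figure D3:**
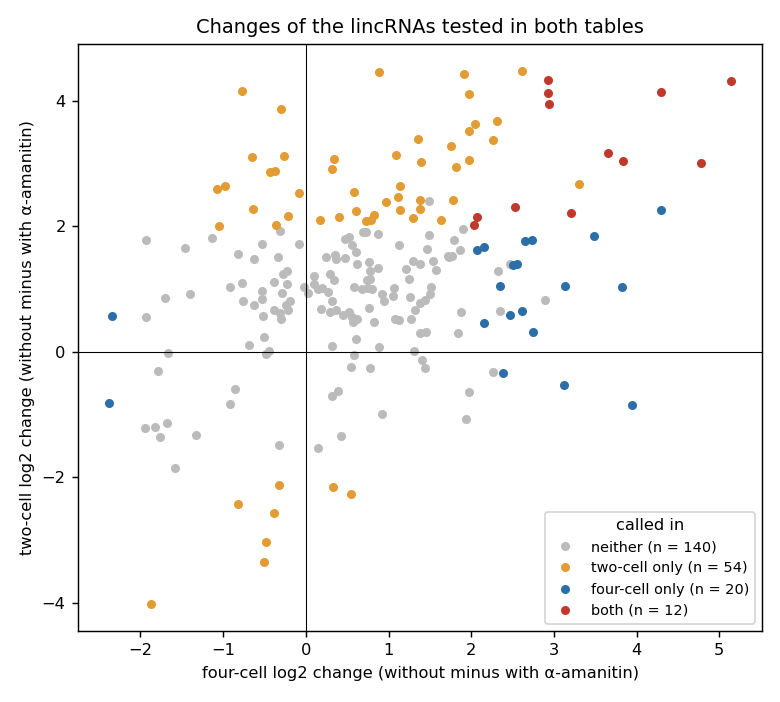
log2 change (without minus with α-amanitin) of the 226 lincRNAs tested in both tables, at the four-cell stage (x axis) and the two-cell stage (y axis), coloured by the stage at which they were called. The 12 called at both stages lie past 2 on both axes, and no called lincRNA has opposite calls; the tables were normalized separately, so the axes are set side by side only.

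A run of lincRNAs on chromosome 6, all on the minus strand between 86483376 and 86516273 and singled out after its values were seen, did not change alike. In the two-cell comparison 2310040G24Rik (described above) was called higher without α-amanitin and Gm44386 (chr6:86513891-86516273) was called lower, while at the four-cell stage neither was called and Gm43936 (chr6:86493216-86493909) was called higher. Gm43936 had 15.2, 2.23 and 3.77 against 0 in all 3 libraries at the four-cell stage, at least 1.89-fold higher, and 1.57 to 11.1 against 0 to 1.73 at the two-cell stage (log2 difference 1.76 ± 0.38, adjusted p = 0.00343, limma, under the 4-fold threshold). Gm44386 had 54.2, 17.8 and 32.3 against 58.6, 125 and 226 at the four-cell stage (log2 difference -1.87 ± 0.53, adjusted p = 0.0534, limma), where every library without α-amanitin was lower. Its four-cell fall was called without S16 (log2 difference -2.37). Gm43936 was called at the four-cell stage and lost this call without S18, S8, S15 or S7 (adjusted p up to 0.0712, limma). The nearest coding start to all 3 is that of Pcbp1, an RNA-binding protein, whose four-cell log2 difference was 1.12 (adjusted p = 0.0361, limma).

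LincRNAs with a known role were taken from 5 lists. Of 45 pluripotency-associated lincRNAs, 7 were among the 264: 0 were called at the four-cell stage, and of the 6 tested at the two-cell stage 2 were called higher and 0 lower, beside 6.2% and 11.1% of all genes called higher and 12.9% and 25.7% of the lincRNAs. Platr23 (chr1:136622098-136624650, minus strand) starts 251 bases from Zfp281, which codes for a zinc finger factor of pluripotent cells. Platr23 had 5.76, 3.81 and 0.569 without and 6.08, 5.41 and 9.55 with α-amanitin at the four-cell stage, where the groups overlapped and the log2 difference was -1.08 ± 0.58 (adjusted p = 0.260, limma). At the two-cell stage it had 6.22 to 17.4 against 0 to 5.71, without overlap, and was listed at 0 in all 3 RAm libraries (log2 difference 2.60 ± 0.45, adjusted p = 0.000997, limma). Zfp281 had a four-cell log2 difference of 1.16 (adjusted p = 0.132, limma). Platr27 had 23.7, 29.5 and 17.6 against 18.5, 15.4 and 21.0 at the four-cell stage and a two-cell log2 difference of 3.07 ± 0.81 (adjusted p = 0.00887, limma), which in Am and NT alone was 0.56.

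Platr26 was at 0 with α-amanitin at the four-cell stage (2.05, 1.71 and 5.05 against 0 in all 3 libraries, at least 1.03-fold higher), with a log2 difference of 1.88 (adjusted p = 0.0219, limma) that missed the 4-fold threshold. It was called without S17 (2.10). Eprn, a lincRNA of embryonic stem cells, had 21.2, 28.9 and 97.0 against 15.8, 10.1 and 2.41, above in every library, but was not called (log2 difference 2.22 ± 0.70, adjusted p = 0.0729, limma); without S16 it was (2.71). Platr3 (3.20, 1.33 and 1.12 against 3.13, 8.54 and 4.58), Platr5 (4.604, 1.91 and 14.6 against 7.89, 4.61 and 6.60) and 1700020I14Rik (5.13, 5.99 and 5.3998 against 4.23, 1.91 and 4.02) were not called at either stage. The two-cell log2 difference of Platr3 was 1.81 ± 0.50 (adjusted p = 0.0116, limma), and it was past the 4-fold threshold without Am3 or r1 (up to 2.25). Platr26, Platr5 and 1700020I14Rik had two-cell log2 differences of 0.64, 0.81 and 0.52.

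Of 17 microRNA hosts, Mir17hg alone was among the 264. It had 5.46, 5.25 and 1.31 without and 0.274, 0 and 0 with α-amanitin, at least 7.74-fold higher, with a log2 difference of 2.06 ± 0.47 (adjusted p = 0.0273, limma). Mir17hg reached an FPKM of 1 only in the libraries without α-amanitin and so passed the choosing threshold through them alone, as did Platr26, and these four-cell values are no test of either. Its call was lost without S18, S8, S15 or S17 (log2 difference from 1.81, adjusted p up to 0.0850, limma). At the two-cell stage it had 1.08 to 7.02 (median 3.63) against 0 to 2.46 (median 0.287), a log2 difference of 1.62 ± 0.37 (adjusted p = 0.00474, limma) under the 4-fold threshold, and only Am1, at 2.46, overlapped the other group.

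Of 22 lincRNAs of growth control and damage response, 5 were among the 264. None was called at the four-cell stage and 1 of 5 was called higher at the two-cell stage (beside 6.2% and 11.1% of all genes called higher), 2900097C17Rik, with 5.10 to 13.4 against 0.165 to 5.46 (log2 difference 2.15 ± 0.45, adjusted p = 0.00276, limma); it was not called without RAm1 or RAm2 (from 1.94). Pvt1, the neighbour of Myc, had 2.82, 3.36 and 5.68 against 1.06, 1.01 and 0.540 at the four-cell stage, without overlap (log2 difference 1.38, adjusted p = 0.0593, limma), and 0.29 at the two-cell stage. Malat1 had a two-cell log2 difference of 1.82 ± 0.66 (adjusted p = 0.0336, limma), and reached the 4-fold threshold without Am2, Am3 or r2 (up to 2.20). Lockd, which lies 8691 bases from the start of the cell cycle inhibitor Cdkn1b, had 0.379, 0.283 and 0.799 against 1.06, 1.67 and 2.94 at the four-cell stage, below in every library, with a log2 difference of -0.92 (adjusted p = 0.150, limma). Epb41l4aos differed by -0.22 at the four-cell stage and by 1.29 at the two-cell stage (adjusted p = 0.693 and 0.0808, limma).

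Xist was the single gene, of 5 listed for the X inactivation centre, among the 264. It had 2.15, 3.60 and 1.55 against 3.04, 0.491 and 0 at the four-cell stage, with overlap, and 1.15 to 3.85 (median 3.15) against 0.0698 to 2.05 (median 0.358) at the two-cell stage (log2 difference 1.34 ± 0.30, adjusted p = 0.00388, limma, under the 4-fold threshold). Of 19 lincRNAs of mesoderm and muscle, Bvht and Chaer1 were among the 264. Chaer1, first described in heart, was lower without α-amanitin at the four-cell stage (0, 0.840 and 0.710 against 2.48, 5.41 and 4.83, log2 difference -1.79 ± 0.44, adjusted p = 0.0335, limma) and past the 4-fold threshold without S16 (-2.06), and at the two-cell stage was below the level filter and not tested (0 to 0.197 without and 0 to 0.544 with α-amanitin). Its four-cell values are 0 to 1 reads without and 4 to 5 reads with α-amanitin per library, at least 1.91-fold lower by the floor of 3 reads. Bvht had log2 differences of 0.37 and 0.66, neither called (adjusted p = 0.786 and 0.295, limma).

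**Figure D4:**
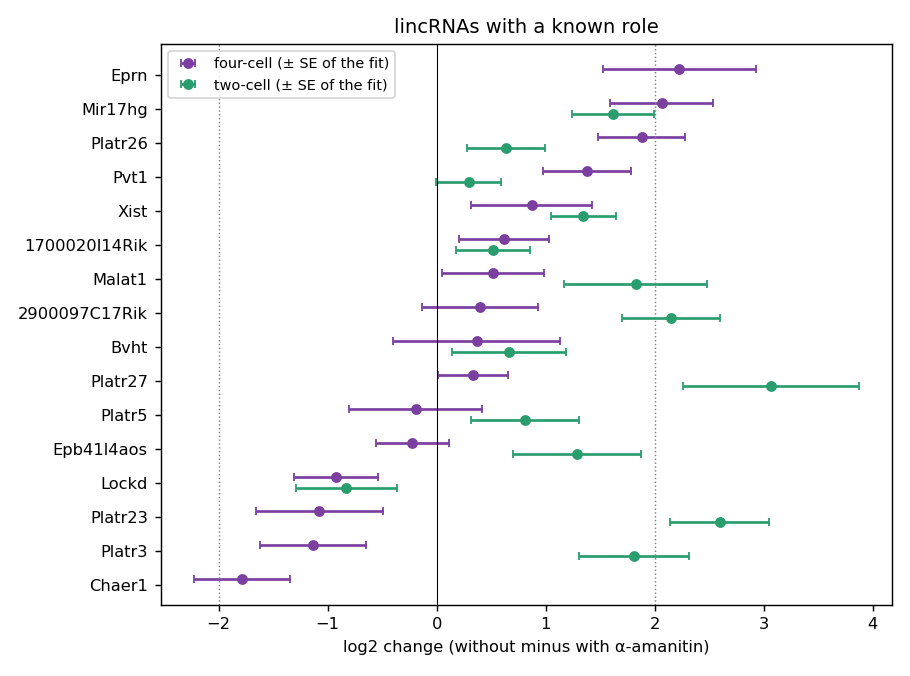
log2 change (without minus with α-amanitin) of the 16 lincRNAs from the 5 lists, with the standard error of the fit, at the four-cell stage (n = 3 against 3) and the two-cell stage (n = 6 against 6); dotted lines mark the 4-fold threshold. Platr27, Platr23 and 2900097C17Rik are past it at the two-cell stage, and Eprn and Mir17hg at the four-cell stage, where the values chose the lincRNAs and are a description.

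In the replication experiment, 223 of the 264 lincRNAs passed the filter and 146 had an FPKM of at least 1 in every library. Here 0 lincRNAs were called between DR and D, beside 0.0% of the 14570 genes tested (limma, after scaling each library by the 19 spike-ins that all 6 detected). At an unadjusted p below 0.05 there were 2 lincRNAs (0.897%) with spike-in scaling, beside 0.604% of all genes, and 18 (8.07%) with FPKM as deposited, beside 6.16%, so both numbers lay near the share of all genes. Spike-ins took 0.0181% to 0.776% of the signal, and their factors ranged from 0.0945 to 5.65 between libraries. The SEs printed below, 1.61 to 2.25, are so wide that a 4-fold change could hardly be called with this scaling. A count of 0 therefore does not show that DR and D were alike, and with FPKM as deposited it was 0 as well. With spike-in scaling the median log2 difference, DR minus D, was -1.56 for the lincRNAs and -1.41 for all genes. With FPKM as deposited it was -0.19 for the lincRNAs and 0.0159 for all genes. The smallest adjusted p, 0.713, was shared by 182 of the 223 lincRNAs, and Platr5, Gm29040 and Gm29371 are the first of these in table order, not the most changed. Platr5 had an FPKM as deposited of 0.502, 2.06 and 2.69 in DR and 4.33, 4.56 and 6.27 in D, without overlap (spike-in scaled log2 difference -2.21 ± 1.81, SE). The 2 lincRNAs with an unadjusted p below 0.05, named after their values were seen, were A930014E10Rik and Mir17hg. A930014E10Rik had 3.51, 8.90 and 6.49 in DR and 129, 46.5 and 32.6 in D, and Mir17hg had 0.853, 3.11 and 0 in DR and 7.72, 3.30 and 4.46 in D, both without overlap. Their spike-in scaled log2 differences were -4.47 ± 2.25 and -3.16 ± 1.61 (SE, adjusted p = 0.713 for each, limma). The myoblast marker sum was likewise lower in every DR library, and its part in these values was not tested. Gm29040 (8.70, 5.84 and 5.82 against 5.00, 5.60 and 7.002) and Gm29371 (18.6, 16.4 and 17.2 against 19.6, 11.2 and 15.2) overlapped between DR and D, and their sign changed with the scaling.

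As a share of the whole signal (FPKM weighted by length), the lincRNAs took 0.495%, 0.581% and 0.487% of the four-cell libraries without α-amanitin and 0.315%, 0.352% and 0.406% of those with it. The means were 0.521% ± 0.0521 and 0.358% ± 0.0459 (SD, n = 3 each), without overlap. At the two-cell stage the share was 0.801% to 1.01% without and 0.249% to 0.617% with α-amanitin, with means of 0.885% ± 0.0780 and 0.437% ± 0.163 (SD, n = 6 each), a difference with p = 0.00216 in a two-sided exact permutation test, which 6 against 6 cannot go below. Without the lincRNAs that passed the four-cell threshold through 1 group alone, the means were 0.849% ± 0.0738 and 0.428% ± 0.162, with the same p (exact permutation test). Within the sets, Am and NT were at 0.530% to 0.617% and 0.846% to 1.01%, and RAm and R at 0.249% to 0.340% and 0.801% to 0.947%. The permutation test shuffled libraries across these sets, so its p and the SDs mix the difference between sets with the spread of replicates. In the replication experiment DR had 0.705% ± 0.135 and D 0.824% ± 0.220 (SD, n = 3 each), which overlapped (exact permutation test, two-sided, p = 0.6). The four-cell values chose these lincRNAs, and their share there is a description with no test.

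**Figure D5:**
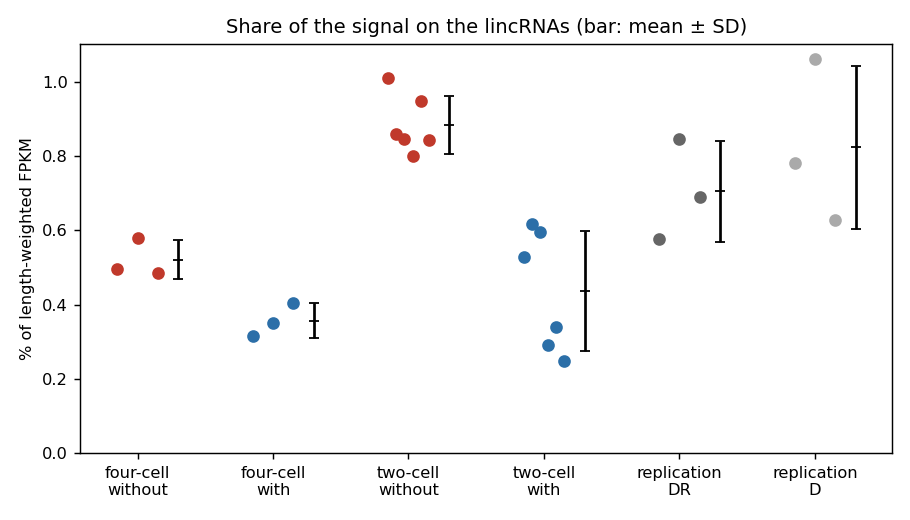
Share of each library's length-weighted FPKM on the lincRNAs (percent; points are libraries, bars the mean ± SD). The four-cell and two-cell groups separate by α-amanitin without overlap, and DR and D overlap.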

How the data were processed

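RNA of pooled NT embryos was measured by RNA-seq (SMART-seq v4, no strand stated), with groups taken from the sample labels and column names. The authors trimmed reads with Trimmomatic, Trim Galore and Cutadapt, mapped them with STAR to mm10 and deposited FPKM per gene; featureCounts is named in the submitters' processing notes, and no version is given in the sources used here. Multiplied by gene length the values sum to 1000000 per library; in the four-cell table they are whole multiples of 1 read (100.0% of values within 0.01), so reads were recovered there, while depth is unknown in the other tables. Each four-cell column is listed under its group only, since its number is not that of a sample, and 4 columns of the replication table were not used. The oryx experiment is not analysed here.

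Each comparison was fitted over the genes that reached an FPKM of 1 in 3 libraries, by limma 3.58.1 (R 4.3.3, trend option) on log2(FPKM + 1), and p-values were Benjamini-Hochberg adjusted over all of these; called means an adjusted p below 0.05 and a change of at least 4-fold, thresholds that the study's methods give. The replication table was scaled to spike-ins. The scripts were tested on simulated data. Samples are separate pools of embryos. The lincRNAs and lists were chosen with earlier results of these data known. Named are all members of 5 lists of known lincRNAs, the 10 largest rises and 5 largest falls called at the four-cell stage (4 were called), the 8 highest, the 6 largest rises and 4 largest falls called at the two-cell stage, those called in opposite directions (0), those called between DR and D or else 3 with the smallest adjusted p (the first in table order of those tied), and the 3 on each side of the threshold; the others named were added after their values were seen.

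Alternatives were a pseudocount of 0.1, no level filter, median-of-ratios and spike-in scaling, FPKM as deposited, at least 6 libraries in the filter, each library left out, the adjusted p alone and a replicate block, and, chosen after seeing the data, limma-voom on the recovered reads, the column sets as a term or alone, the lincRNAs that passed through 1 four-cell group alone left out, and the share without 2310040G24Rik or without those lincRNAs.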

Additional observations from a re-analysis of the deposited data

Results flagged for a closer look

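For 19 of 43 named lincRNAs, the two-cell change (without minus with α-amanitin, log2) differed between the column sets by a test of that difference (limma, adjusted p below 0.05 over all genes), which is 44.2% of them and near the 44.5% of all genes (36.0% with a larger and 8.46% with a smaller change in RAm and R). The change in RAm and R exceeded that in Am and NT by 9.34 for AC122486.1, 5.01 for Platr27, 4.03 for 5033426E14Rik, 3.90 for 2310040G24Rik, 3.61 for Gm45864, 3.47 for AC122428.4, 3.34 for AC163667.1 and 3.32 for 4930500L23Rik. The excess was 3.18 for Gm40977, 3.08 for Epb41l4aos, 2.91 for Gm4349, 2.70 for AC121569.2, 2.40 for Malat1, 2.24 for 2900097C17Rik, 2.15 for A930014E10Rik, 1.92 for Platr23 and 1.21 for 1700020I14Rik. For C86187 and Gm28078, both lower without α-amanitin, the difference was -3.19 and -2.66. The 43 do not cover every lincRNA named above, and Gm29040, outside them, met the same test (2.34, adjusted p = 0.0118, limma). Median-of-ratios factors were 0.475 to 0.519 in the RAm libraries and 1.08 to 1.48 in the other 9, and their part in these differences was not tested.

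In 16 of 86 two-cell groups of 6 libraries, the highest library stood apart from the rest (Dixon's test). The usual rate of about 1 flag in 20 holds for values of a single normal population. These groups pool 2 column sets and in part hold values of 0, so that rate gives no measure of an excess here. Without α-amanitin this library had an FPKM of 193 for Gm44693, 86.5 for Gm44386, 57.4 for Gm14742, 11.1 for Gm43936 and 3.02 for Lockd. With α-amanitin it had 45.8 for Gm33973, 29.4 for Gm27010, 16.9 for Gm45864, 11.6 for Gm26707, 10.5 for Lockd and 6.18 for Platr5. It had 5.71 for Platr23, 2.46 for Mir17hg, 2.05 for Xist, 1.84 for Platr26 and 1.73 for Gm43936.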

How the results depend on the processing

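At the four-cell stage 38 lincRNAs were called; the number was 15 (14 higher, 1 lower) with every gene with any signal tested, 59 (50 and 9) with the adjusted p alone, 21 to 53 with 1 library left out, and 34 to 42 with a pseudocount of 0.1, median-of-ratios scaling or limma-voom on recovered reads. At the two-cell stage 66 were called; the number was 108 (98 and 10) with a pseudocount of 0.1, 114 (112 and 2) with spike-in scaling, 125 (109 and 16) with the adjusted p alone, 21 in Am and NT alone, 107 in RAm and R alone, 52 to 77 with 1 library left out, 47 (33 and 14) with median-of-ratios scaling, and 61 (53 and 8) without the lincRNAs that passed through 1 four-cell group alone. Between DR and D it was 0 under every alternative run. The difference in the share of signal, in percentage points, was 0.134 to 0.188 at the four-cell stage, 0.410 to 0.484 at the two-cell stage and -0.217 to -4.51e-05 between DR and D with 1 library left out. The causes of these changes were not tested.

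With the replicate number as a block, 64 two-cell lincRNAs were called (56 higher, 8 lower). Same-numbered two-cell libraries had correlations of 0.0149 to 0.0654, none over 0.1. Low correlations over all genes cannot exclude that same-numbered pools came from a shared batch of embryos. No paired analysis was possible for the four-cell table because its column numbers are shared by no pair and are not the replicate numbers of the labels, nor for the replication table because the columns of D and DR share only the number 1.

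Single genes changed sign as follows (log2 change). At the four-cell stage these were Epb41l4aos (0.01 without S7), Bvht (-0.32 without S18), Platr5 (0.37 without S17), Gm28078 (0.006 without S8) and Gm3143 (0.19 without S18). At the two-cell stage they were Pvt1 (-0.084) and 1700020I14Rik (-0.11) with median-of-ratios scaling, Epb41l4aos (-0.25), Bvht (-0.015), 1700020I14Rik (-0.087) and AC122486.1 (-0.56), the last called over all 12 libraries, in Am and NT alone, AC155813.1 (-0.044) in RAm and R alone, and Gm31793 (0.042) and Gm27010 (0.41) with spike-in scaling. Between DR and D they were Gm29040 (0.17 as deposited, 0.13 with median-of-ratios scaling) and Gm29371 (0.20, 0.15, and 0.006 without D1). With 1 library left out, those sign changes lay in ranges of -0.48 to 0.01 for Epb41l4aos, -0.32 to 1.27 for Bvht, -0.84 to 0.37 for Platr5, -0.99 to 0.006 for Gm28078, -0.79 to 0.19 for Gm3143 and -2.90 to 0.006 for Gm29371. Of the 24 named lincRNAs called at the four-cell stage, 10 were called in every fit that left out a library, and 18 of 24 at the two-cell stage. The planned count-model tests on whole reads were not run. Four-cell values under 3 reads carry little information, and depth is unknown in the other tables.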
